A study of Caenorhabditis elegans with 24 samples.

Results

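The 10 genes described here encode nucleolar proteins of ribosome biogenesis in Caenorhabditis elegans, together with a regulator of nucleolus size. They are fib-1, nol-1, nol-5, nol-6, nol-10, pro-1, pro-2, pro-3, dao-5 and ncl-1, out of 21982 genes in the deposited table. They were chosen by name and role, with earlier results of these data known. All 10 were found in the table and all 10 passed the filter on low values, which left 13150 genes for testing. The annotation used here lists nol-1 as nsun-1 and nol-5 as nol-58, and these 2 older symbols were joined by sequence name (W07E6.1 and W01B11.3) from worm nomenclature, since the annotation lists no synonym for them.

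RNA was sequenced from lysates of about 400 whole day 3 adults per sample, so soma, germline, oocytes and embryos held in the uterus all contributed to each value. RAGA-1::AID Somatic animals carried the allele raga-1(wbm40), in which the endogenous gene is fused to an auxin-inducible degron and EmGFP, and the transgene ieSi57 on chromosome II, in which the eft-3 promoter drives the plant F-box protein TIR1 fused to mRuby in somatic tissues. RAGA-1::AID Neuronal animals carried the same raga-1(wbm40) allele with wbmIs83 on chromosome IV, in which the pan-neuronal rab-3 promoter drives TIR1. Wild type animals were N2 Bristol and carried neither. In each of the 3 strains, day 1 adults were transferred either to auxin plates (0.15 mM) or to plates that held the ethanol solvent alone, and both were harvested at day 3. Each of the 6 groups had 4 libraries, collected on separate days from separate thaws. RNA was extracted from 2 replicates in parallel, but which replicates went together is not given in the sources used here. Auxin makes the degron a substrate of TIR1, and the tagged protein is then destroyed; RAGA-1 is a GTPase that activates mTORC1, a kinase complex that couples nutrients to growth.

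Ribosomes are assembled in the nucleolus, where RNA polymerase I transcribes ribosomal DNA and the precursor RNA is cleaved, folded and chemically modified while ribosomal proteins join it. Fibrillarin and its partners form box C/D small nucleolar ribonucleoproteins (snoRNPs), which methylate the precursor; the small subunit processome and a separate set of factors then build the small and the large subunit. mTORC1 is a well known activator of ribosome biogenesis in yeast and mammals. In worms the size of the nucleolus is restrained by NCL-1, a TRIM-NHL protein that lowers fibrillarin levels.

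Recovered depth was 16982857 to 41671106 reads per library. The targeted transcript does not check degradation, which acts on the protein. In the somatic strain the raga-1 transcript averaged 1494 ± 93.7 normalized counts on auxin and 1687 ± 44.7 off auxin (SD, n = 4 each, as for every group below). In the neuronal strain it averaged 1617 ± 48.1 on auxin and 1675 ± 54.9 off auxin, and in wild type 2842 ± 66.6 on auxin and 2838 ± 174 off auxin. Off auxin it was lower in both AID strains than in wild type, with log2 fold changes of -0.75 (somatic strain) and -0.76 (neuronal strain).

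The 10 genes were all well expressed, and each averaged over 1000 normalized counts in every group. Normalized counts are gene counts divided by 1 size factor per library, so they compare a gene between libraries; to compare genes, values were divided by the length of the merged exons. On this scale fib-1, on chromosome V, led with group means of 7392 to 8069 normalized counts per kb. nol-5 followed at 3987 to 4116 per kb and dao-5 at 3550 to 3839 per kb, both on chromosome I. nol-6 at 336 to 408 per kb and pro-3 at 341 to 429 per kb were the least abundant. Between their highest and lowest group the genes moved little, by 1.03 times for nol-5 to 1.26 times for pro-3, so the differences below are modest in size.

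**Figure D1:**
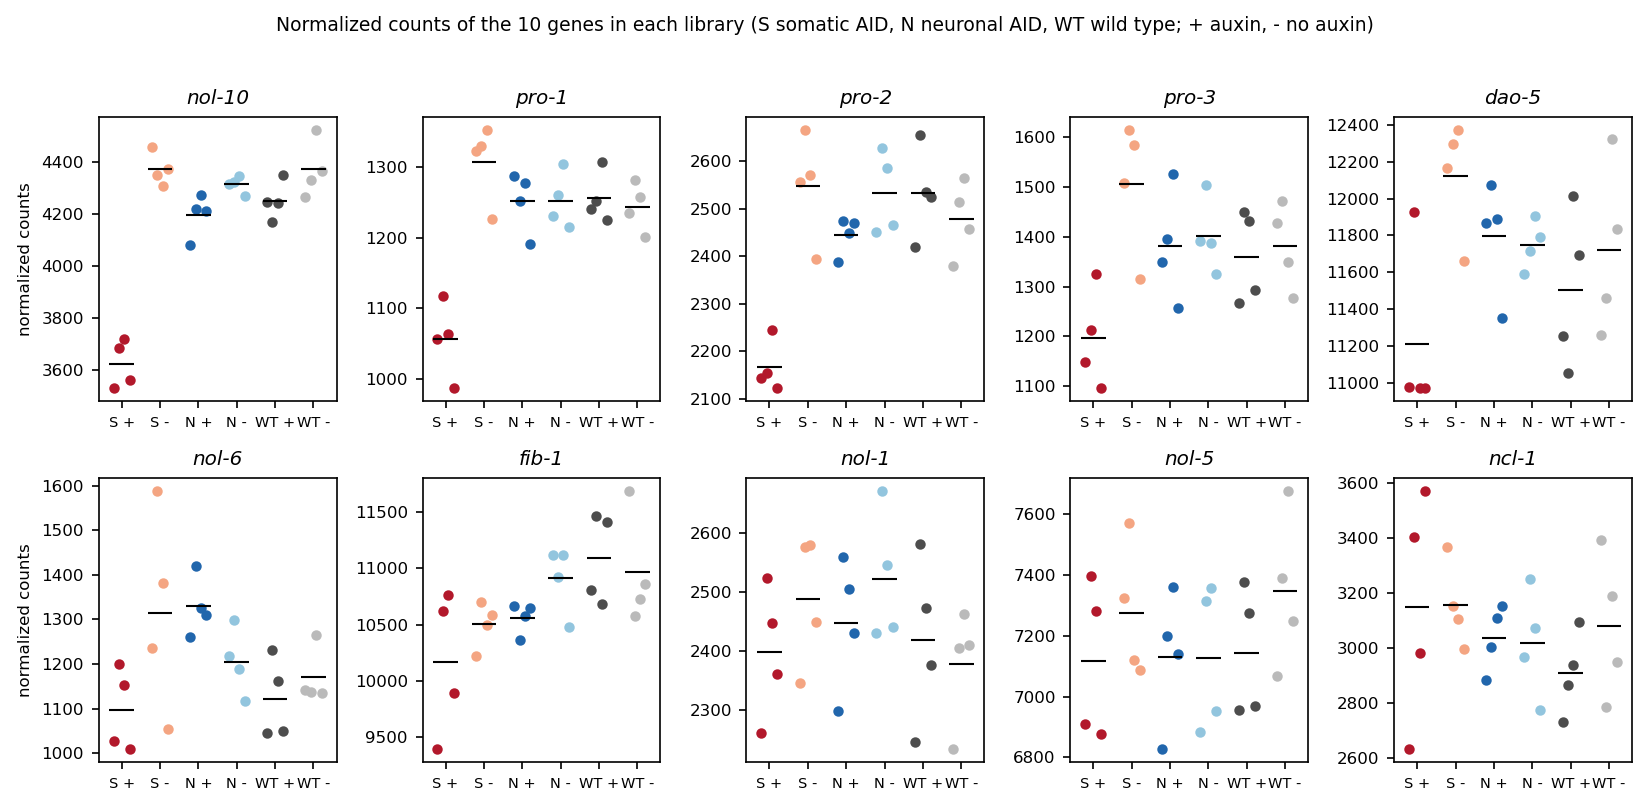
Normalized counts of the 10 genes (vertical axes, which do not start at 0) in each of the 24 libraries, grouped by strain and treatment: S is the somatic degradation strain, N the neuronal one and WT is wild type, with + for auxin and - for no auxin. Points are libraries in the order of replicates 1 to 4 and bars are group means. For nol-10, pro-1 and pro-2 the 4 somatic auxin libraries sit below all 20 others, and the share of all genes that do so was not computed.

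Somatic degradation of RAGA-1 was compared first, to ask whether these genes respond to auxin in that strain. 5 of the 10 genes fell with auxin at an adjusted p of 0.01 or less, namely nol-10, pro-1, pro-2, pro-3 and dao-5, and 0 rose. Of all 13150 genes tested, 19.6% were called lower and 16% higher in this comparison (35.6% in either direction). The median log2 fold change of the 10 genes was -0.17, beside 0.0097 over all genes tested. Lower calls were commoner among abundant transcripts. Of the 4584 genes that averaged at least 1000 normalized counts, a limit chosen after the values were seen because all 10 genes lie above it, 45.3% were called lower and 7.92% higher, and their median log2 fold change was -0.10. The 10 most abundant genes held 21.6% to 25% of the counts in the 4 somatic auxin libraries and 13.7% to 18% in the 20 others, and the part of this difference in the result was not tested. Read against those genes, 5 of 10 is close to the background share.

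Of the 2 small subunit factors nol-10 had the smallest standard error of the 10 genes and nol-6 the largest. nol-10 (chromosome IV, 7580597 to 7583726, plus strand, WBcel235) encodes the orthologue of human NOL10 and yeast Enp2, a component of the small subunit processome. It had 3530, 3684, 3722 and 3562 normalized counts in somatic auxin libraries, against 4458, 4351, 4310 and 4373 in somatic libraries without auxin. The 2 groups did not overlap, as was so in the lower direction for 20.5% of all genes tested. The 4 auxin libraries were also below all 20 other libraries, which ranged from 4083 to 4525. The share of all genes that lie below all 20 others in this way was not computed. Nor was the share without overlap among genes averaging at least 1000 normalized counts. The transcript fell by 17.1% (log2 fold change -0.27, SE 0.022, adjusted p = 7.3e-09).

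nol-6 (chromosome II, 1425732 to 1437499, minus strand) encodes the orthologue of human NOL6, another processome component. It had 1026, 1200, 1152 and 1008 normalized counts in somatic auxin libraries, against 1235, 1588, 1382 and 1055 in somatic libraries without auxin. The groups overlapped through the low value of replicate 4 without auxin, while replicate 2 without auxin was the highest of the 8, and the coefficient of variation there was 17.2%, the largest among the 60 combinations of gene and group. Its log2 fold change of -0.25 (SE 0.089, adjusted p = 0.025) was not called, although the auxin library was below the library without auxin for each of the 4 replicate numbers. Without the library of replicate 4 kept without auxin, nol-6 was called with a log2 fold change of -0.35 (adjusted p = 0.0013).

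The pro genes were named for proximal germline proliferation in animals that lack them, and all 3 encode factors of large subunit assembly or export. pro-1 (chromosome II, 10539438 to 10541996, minus strand), the WDR18 orthologue, had 1056, 1117, 1063 and 986 normalized counts in somatic auxin libraries, against 1322, 1330, 1353 and 1226 in somatic libraries without auxin. Every auxin library was below every library without auxin, as was so for 20.5% of all genes tested. The auxin libraries were also below the 20 other libraries, whose lowest value was 1191, a property whose share over all genes was not computed. The transcript fell by 19.3% (log2 fold change -0.31, SE 0.040, adjusted p = 2e-06).

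pro-2 (chromosome II, 10339727 to 10345112, minus strand), the orthologue of human NOC2L and yeast Noc2, had 2144, 2154, 2246 and 2122 normalized counts in somatic auxin libraries, against 2556, 2666, 2571 and 2395 in somatic libraries without auxin. These groups also did not overlap, and the lowest of the 20 other libraries was 2379. The transcript fell by 14.9% (log2 fold change -0.23, SE 0.034, adjusted p = 1.2e-05).

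pro-3 (chromosome V, 19101347 to 19118412, minus strand), the SDAD1 orthologue, had 1150, 1214, 1326 and 1095 normalized counts in somatic auxin libraries, against 1508, 1615, 1585 and 1316 in somatic libraries without auxin. The groups overlapped by 1 library on each side, replicate 3 with auxin and replicate 4 without. Its change was the largest of the 10 in size but less precise, and it fell by 20.5% (log2 fold change -0.33, SE 0.071, adjusted p = 0.00064). pro-3 shares 440 exon bases with zhp-4 on the same strand, so reads in that stretch could be assigned to either gene; zhp-4 averaged 388 ± 52.4 normalized counts on auxin and 376 ± 9.61 off auxin.

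nol-1 (chromosome II, 471262 to 475940, minus strand) encodes the NOP2 orthologue, a cytosine methyltransferase of the large subunit RNA. It had 2261, 2524, 2446 and 2360 normalized counts in somatic auxin libraries, against 2345, 2575, 2579 and 2449 in somatic libraries without auxin. The groups overlapped widely and the difference was not called (log2 fold change -0.05, 95% confidence interval -0.15 to 0.045, adjusted p = 0.37). nol-1 shares 1299 exon bases with W07E6.5 on the opposite strand, which averaged 160 ± 20.5 normalized counts on auxin and 170 ± 35.2 off auxin.

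fib-1 and nol-5, which encode core proteins of the box C/D snoRNP, were not called. fib-1 (chromosome V, 15000651 to 15002223, minus strand), fibrillarin, the methyltransferase of the particle, had 9386, 10622, 10760 and 9887 normalized counts in somatic auxin libraries, against 10222, 10704, 10495 and 10585 in somatic libraries without auxin. Replicates 1 and 4 with auxin were below all 4 libraries without it, while replicates 2 and 3 lay within or above their range. Its log2 fold change was -0.05 with a 95% confidence interval of -0.13 to 0.028 (adjusted p = 0.29).

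nol-5 (chromosome I, 3267094 to 3269112, plus strand) encodes the NOP58 orthologue, a scaffold of the same particle. It had 6909, 7398, 7281 and 6878 normalized counts in somatic auxin libraries, against 7323, 7570, 7122 and 7089 in somatic libraries without auxin. The groups overlapped (log2 fold change -0.03, 95% confidence interval -0.10 to 0.036, adjusted p = 0.44).

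dao-5 (chromosome I, 10187546 to 10190896, minus strand) encodes the worm orthologue of NOLC1, or Nopp140, a phosphoprotein that accompanies snoRNPs and promotes rDNA transcription. It had 10975, 11928, 10968 and 10973 normalized counts in somatic auxin libraries, against 12165, 12300, 12375 and 11660 in somatic libraries without auxin. Replicate 2 with auxin stood well above its 3 partners and overlapped the group without auxin, whose replicate 4 was lowest. The transcript fell by 7.57% (log2 fold change -0.11, SE 0.032, adjusted p = 0.006), the weakest of the 5 calls. It was lost when somatic auxin replicate 1, 3 or 4, or somatic no auxin replicate 1, 2 or 3, was left out, and the adjusted p ranged from 0.00069 to 0.022 over the 8 such fits.

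ncl-1 (chromosome III, 7719729 to 7738105, plus strand), the only member known to restrain the nucleolus, had 2632, 3404, 2984 and 3571 normalized counts in somatic auxin libraries, against 3367, 3153, 3105 and 2996 in somatic libraries without auxin. The auxin libraries spread on both sides of the others, with a coefficient of variation of 13.4% against 4.93%. Its log2 fold change was -0.01 with a 95% confidence interval of -0.17 to 0.14 (adjusted p = 0.91).

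The fold changes of all 10 genes were negative in the somatic strain, though that of ncl-1 did not keep its sign: with 1 library left out it ranged from -0.076 (without somatic auxin replicate 4) to 0.070 (without somatic auxin replicate 1), and it was also positive without somatic auxin replicate 3 or somatic no auxin replicate 1, under TMM rescaling and in both edgeR fits. nol-1, nol-5 and ncl-1 were positive under quantile normalization, and fib-1 and ncl-1 in replicates 2 and 3 alone, none of them called. The 5 that fell were negative under every alternative tried. Quantile normalization moved the calls over all genes from 2105 higher and 2575 lower to 1281 higher and 2444 lower, with a median log2 fold change of -0.05 in place of 0.0097.

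**Figure D2:**
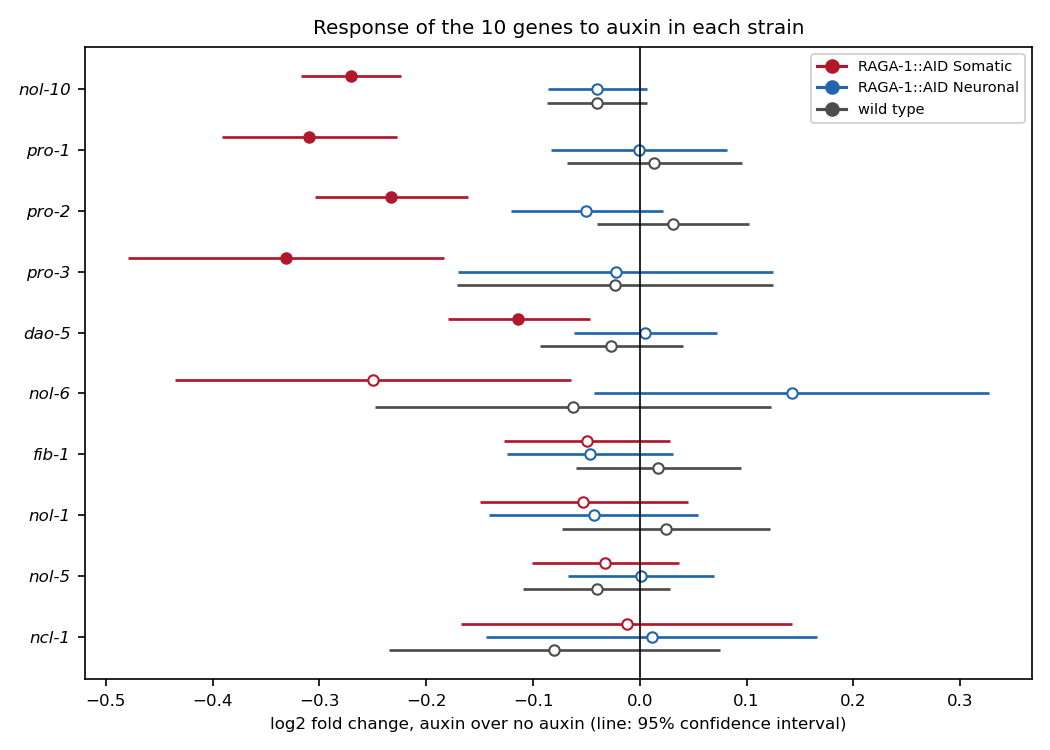
Log2 fold changes, auxin over no auxin (horizontal axis), of the 10 genes in the somatic degradation strain, the neuronal one and wild type, with 95% confidence intervals from limma; filled points were called at an adjusted p of 0.01 or less. Only somatic points of nol-10, pro-1, pro-2, pro-3 and dao-5 are filled.

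Neuronal degradation gave 0 calls among the 10 genes by limma, where 0.441% of all genes tested were called in either direction. The RNA came from whole animals, so a change confined to neurons could be hidden by RNA of other tissues, which was not tested. 0 of the 10 had an unadjusted p under 0.05, as 14.5% of all genes did, and edgeR and DESeq2 on recovered reads also called 0. The median log2 fold change was -0.012 and 6 of 10 were negative, with a range of -0.05 for pro-2 to 0.14 for nol-6. nol-6 had 1261, 1421, 1326 and 1310 normalized counts in neuronal auxin libraries, against 1217, 1298, 1189 and 1116 in neuronal libraries without auxin. The auxin library was the higher one for each of the 4 replicate numbers, the opposite order to the somatic strain, but the groups overlapped and the difference was not called (log2 fold change 0.14, SE 0.089, adjusted p = 0.50). nol-10 had 4083, 4222, 4275 and 4212 normalized counts in neuronal auxin libraries, against 4318, 4324, 4348 and 4269 in neuronal libraries without auxin. It was lower with auxin for each replicate number, with the groups overlapping by a margin of 1 library on each side (log2 fold change -0.04, 95% confidence interval -0.086 to 0.0069, adjusted p = 0.44).

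Auxin alone was examined in wild type. 0 of the 10 genes were called by limma, as 0% of all genes tested were, with 0 of the 10 and 2.3% of all genes at an unadjusted p under 0.05, and edgeR and DESeq2 called 0 of the 10 as well. The median log2 fold change was -0.025, and the range ran from -0.08 for ncl-1 to 0.03 for pro-2. nol-10 had 4246, 4170, 4243 and 4352 normalized counts in wild type auxin libraries, against 4265, 4334, 4525 and 4367 in wild type libraries without auxin, with a log2 fold change of -0.04 (adjusted p = 1). The estimate was close to that in the neuronal strain.

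The strains were also compared without auxin, where the tag, TIR1 and any loss of RAGA-1 without auxin come together. The paper reports a lower RAGA-1::AID::EmGFP signal off auxin when somatic TIR1 was present, and no such drop with neuronal TIR1. The somatic group off auxin may therefore not hold a full level of RAGA-1, and its response to auxin starts from there. In the somatic strain set against wild type limma called 0 of the 10 genes, beside 0.213% of all genes, and 0 of the 10 had an unadjusted p under 0.05, beside 9.77% of all genes. In the neuronal strain set against wild type it called 0 of the 10, beside 0.0076% of all genes, and 0 had an unadjusted p under 0.05, beside 4.97% of all genes. edgeR and DESeq2 also called 0 in both. In the somatic baseline comparison 8 of 10 fold changes were positive with a median of 0.044. The lowest was -0.06 for fib-1, which had 10222, 10704, 10495 and 10585 normalized counts in the somatic strain, against 11692, 10575, 10728 and 10864 in wild type, with 1 high wild type library and overlapping groups (adjusted p = 0.63). nol-6 at 0.15 and pro-3 at 0.12 were the highest, with adjusted p of 0.61 and 0.62. For nol-10, pro-1, pro-2, pro-3, dao-5 and ncl-1 the somatic group off auxin had the highest of the 6 group means, though for nol-10 it exceeded wild type off auxin by only 0.00024 on the log2 scale, and none of the 6 was called against wild type.

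Whether the response differed between strains was tested as an interaction in the same fit. The somatic response was more negative than the neuronal one for 3 of 10 genes, beside 6.02% of all genes tested: nol-10 by -0.23 on the log2 scale (SE 0.032, adjusted p = 4.6e-05), pro-1 by -0.31 (SE 0.056, adjusted p = 0.00058) and pro-2 by -0.18 (SE 0.049, adjusted p = 0.0099). The value for pro-2 lies at the threshold, and pro-2 was not called in 13 of the 16 fits that left out 1 library. When only the 9617 genes averaging at least 50 normalized counts were fitted, 881 were called lower in this interaction. The share among genes averaging at least 1000, as all 10 do, was not computed for it. nol-6 differed most in size, by -0.39, and pro-3 by -0.31, but neither was called (adjusted p of 0.029 and 0.031). Both were called without somatic no auxin replicate 4, and each was not called in the 15 other fits that left out 1 library.

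Against wild type, the somatic response was more negative for the same 3 genes, beside 9.67% of all genes tested. Of the 9617 genes averaging at least 50 normalized counts, fitted alone, 1358 were called lower here. The share among genes averaging at least 1000 was again not computed. The differences for the 3 genes were -0.23 for nol-10 (adjusted p = 2.1e-05), -0.32 for pro-1 (adjusted p = 0.00023) and -0.26 for pro-2 (adjusted p = 4e-04). Both interactions use the same somatic libraries, so they are not independent of each other. Neither difference was called for dao-5 by limma. Against the neuronal response it was -0.12 (95% confidence interval -0.21 to -0.024, unadjusted p = 0.016, adjusted p = 0.064). Against the wild type response it was -0.09 (95% confidence interval -0.18 to 0.0076, adjusted p = 0.16). These intervals are not adjusted for the number of genes tested. The neuronal response differed from the wild type response for 0 of the 10 genes by limma, beside 0.0152% of all genes; 0 of the 10 had an unadjusted p under 0.05, beside 6.62% of all genes, and edgeR and DESeq2 called 0.

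The wider pathway was read from 5 lists of 54 tested genes, 26 of which fell in the somatic strain and 0 of which rose. Their median log2 fold change was -0.12 and 45 of the 54 were negative. The share of 48.1% called lower was again near the 45.3% of genes averaging at least 1000 normalized counts. Over all genes tested it was 19.6%. The count for each list below is to be read beside these 2 shares. In the neuronal strain 0 of the 54 were called, with a median of -0.03.

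Genes of RNA polymerase I and its initiation factor stood lowest of the 5 lists by median, at -0.21, with 5 of 7 lower. tif-1A, the orthologue of the growth-regulated initiation factor TIF-IA, averaged 4480 ± 52.9 normalized counts on auxin and 5443 ± 104.1 off auxin, a log2 fold change of -0.28 (SE 0.021, adjusted p = 1.2e-09). rpoa-2, the second largest polymerase subunit, averaged 3403 ± 194 on auxin and 4496 ± 433 off auxin, a log2 fold change of -0.40 that was larger in size than that of any of the 10 genes. rpoa-49, a subunit specific to polymerase I, averaged 1302 ± 50.5 on auxin and 1510.1 ± 33.3 off auxin (log2 fold change -0.21). The interaction with the neuronal strain was called for 3 of the 7 genes, beside 6.02% of all genes tested called lower. The 3 were -0.24 for tif-1A, -0.37 for rpoa-2 and -0.19 for rpoa-49, and the 4 others were not called. These 3 were named for their small somatic adjusted p, and the interaction uses the same somatic libraries, so it adds no independent evidence for them.

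Among snoRNP proteins and their assembly helicases 4 of 8 fell, with a median of -0.12. ruvb-1, an assembly helicase, had a log2 fold change of -0.17 (adjusted p = 4.8e-07). dkc-1, the dyskerin pseudouridine synthase, had -0.16 (adjusted p = 2.5e-05), and Y48A6B.3, an orthologue of the H/ACA protein NHP2, had -0.15 (adjusted p = 0.0017). The remaining call was nol-56, named here after its values were seen, which encodes NOP56, the box C/D core protein that pairs with NOP58. It averaged 5688 ± 338 normalized counts on auxin and 6277 ± 148 off auxin (log2 fold change -0.14, adjusted p = 0.0031), so 1 core protein of that particle fell while fib-1 and nol-5 were not called, a difference between genes that was not tested. ruvb-2 missed the threshold narrowly (log2 fold change -0.09, adjusted p = 0.010).

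Of the small subunit list 8 of 15 fell, with a median of -0.13. The 3 with the smallest adjusted p were emg-1, an RNA methyltransferase (log2 fold change -0.32, adjusted p = 0.00011), ZK1127.5, an orthologue of the cleavage factor RCL1 (-0.21, adjusted p = 0.00028), and wdr-46 (-0.14, adjusted p = 0.00042).

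Of the large subunit list 3 of 12 fell, with a median of -0.09, beside 19.6% of all genes tested and 45.3% of the abundant ones. These were wdr-12 (log2 fold change -0.21, adjusted p = 6.6e-05), nifk-1 (-0.15, adjusted p = 0.0014) and nol-9 (-0.21, adjusted p = 0.0021). The count was 2 to 5 with 1 library left out, and 5 without somatic auxin replicate 3. Of the exosome and exonuclease list, which trims the precursor RNA, 6 of 12 fell with a median of -0.10. They were led by dis-3, the exosome nuclease (-0.16, adjusted p = 8.6e-05), mtr-4, its helicase (-0.11, adjusted p = 0.00015), and exos-4.2 (-0.20, adjusted p = 0.00033). The exosome count was 3 to 6 with 1 library left out, and 3 without somatic auxin replicate 1 or 4.

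**Figure D3:**
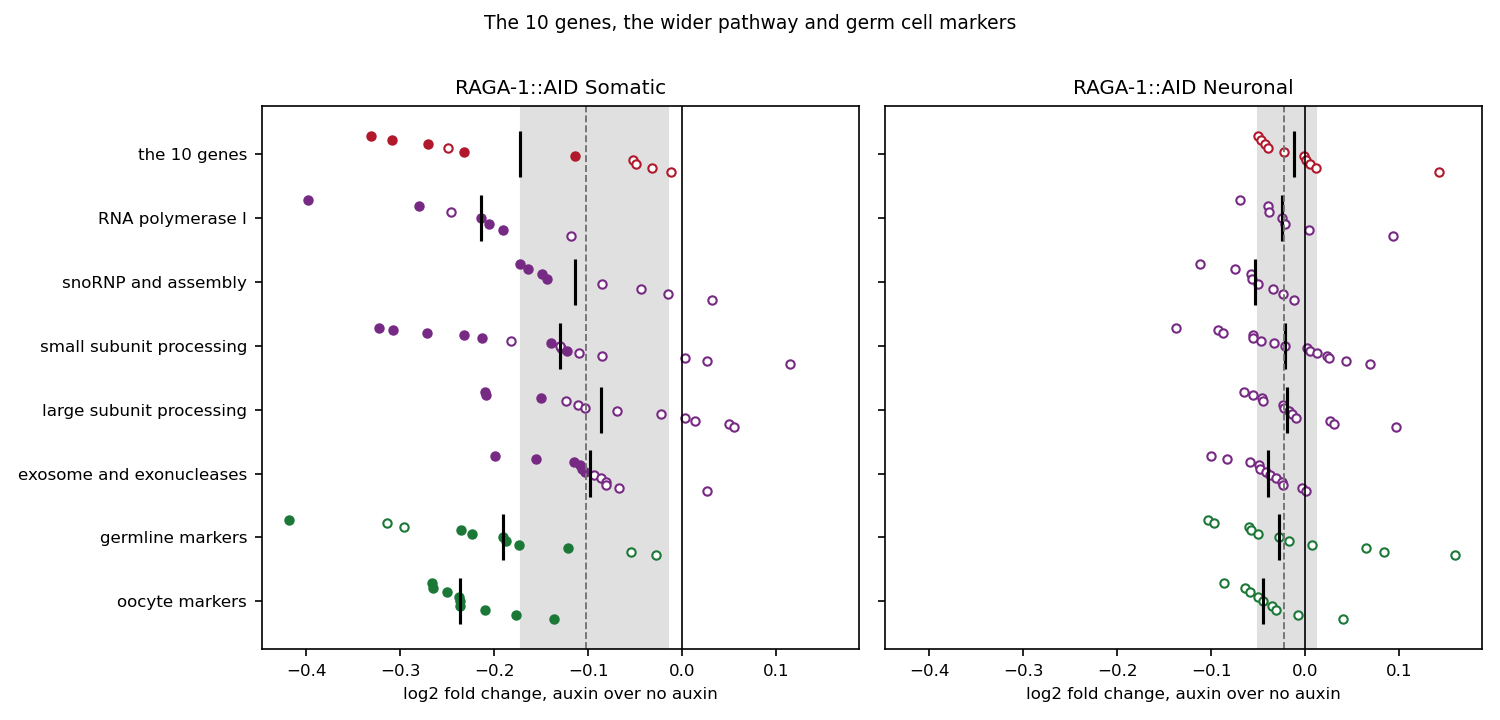
Log2 fold changes, auxin over no auxin (horizontal axes), in the somatic (left) and the neuronal degradation strain (right) for the 10 genes, 5 lists of the wider pathway and 2 marker lists. Each point is a gene, filled where called at an adjusted p of 0.01 or less; black bars are list medians, and the dashed line and grey band give the median and the interquartile range of the 4584 genes averaging at least 1000 normalized counts. In the somatic strain the pathway lists lie partly inside the band and the 9 oocyte markers are all filled.

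ncl-1 belongs to the TRIM-NHL family, whose other members moved in both directions in the somatic strain. nhl-1 averaged 278 ± 30.6 normalized counts on auxin and 195 ± 13.8 off auxin and rose (log2 fold change 0.51, adjusted p = 0.00015). nhl-2 fell (log2 fold change -0.25, adjusted p = 3e-07), and so did lin-41, which acts in oocytes (-0.20, adjusted p = 1.6e-06). nhl-3 had a log2 fold change of -0.13 and was not called (adjusted p = 0.19).

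Of 10 regulators linked to mTORC1 or to Myc-like control of the nucleolus, 6 fell and 1 rose in the somatic strain, and 0 were called in the neuronal one. Of all genes tested, 19.6% were called lower and 16% higher in the somatic strain. Of those averaging at least 1000 normalized counts, 45.3% were called lower. daf-15, the Raptor orthologue, had a log2 fold change of -0.15 (adjusted p = 2.9e-05) and larp-1, which binds messenger RNAs of ribosomal proteins in mammals, -0.17 (adjusted p = 3e-05). rheb-1, the GTPase that activates TOR, had -0.19 (adjusted p = 0.0017), and raga-1 itself -0.18 (adjusted p = 0.0017). let-363, the TOR kinase, was at -0.05 (adjusted p = 0.30) and rsks-1, the S6 kinase, at -0.06 (adjusted p = 0.079), and neither was called.

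In the Myc-like network, mml-1 averaged 1152 ± 68.4 normalized counts on auxin and 1374 ± 32.03 off auxin (log2 fold change -0.26, adjusted p = 3.7e-05). Its partner mxl-2 averaged 1582 ± 87.0 on auxin and 1557 ± 77.7 off auxin, a log2 fold change of 0.02 that was not called. mdl-1, a Mad-like factor, rose, with 1024 ± 132 normalized counts on auxin and 644 ± 86.2 off auxin (log2 fold change 0.67, adjusted p = 3.5e-05), and mxl-1, its partner, fell (-0.20, adjusted p = 0.0012).

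Oocyte and germline markers were also lower with auxin in the somatic strain. Lower calls there made up 19.6% of all genes tested and 45.3% of those averaging at least 1000 normalized counts. All 9 oocyte markers (cbd-1, rme-2, puf-5 and others) fell in the somatic strain with a median log2 fold change of -0.24, and their summed level was 289860 to 310360 normalized counts with auxin and 348600 to 356920 without. 7 of 11 germline markers fell, with a median of -0.19 and a summed level of 81239 to 87153 with auxin and 90587 to 94388 without. In the neuronal strain the oocyte sum was 331550 to 338410 with auxin and 344200 to 348620 without, and 0 of the oocyte or germline markers were called; in wild type it was 340980 to 351020 with auxin and 336620 to 355730 without. None of the oocyte or germline markers was at 0 in all 4 libraries of a group. In whole animals, fewer cells of a type and less RNA per cell cannot be told apart, and the part of the germ cells in the result was not tested.

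Set beside the oocyte markers, in a ratio that was added after the values were seen, the 10 genes differed from each other. nol-10 had 12.1 ± 0.193 normalized counts per 1000 of the summed oocyte markers in somatic auxin libraries and 12.4 ± 0.309 in somatic libraries without auxin. pro-2 had 7.25 ± 0.211 with auxin and 7.22 ± 0.283 without, and pro-1 had 3.53 ± 0.10 with auxin and 3.71 ± 0.139 without. For these, and for nol-6 and pro-3, the ranges of the 2 groups overlapped, and the ratio of group means lay between 0.937 and 1.00. fib-1 had 34.0 ± 1.36 with auxin and 29.8 ± 0.473 without. For fib-1, nol-1, nol-5 and dao-5 the ranges did not overlap, with the auxin group higher by 1.09 to 1.15 times. The summed oocyte markers themselves fell, so a gene that fell by less than they did comes out higher in this ratio. This held for dao-5, whose normalized counts fell with auxin. The share of all genes without overlap in this ratio was not computed. ncl-1 was 1.18 times higher by this measure, with overlapping ranges.

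The replicates carried a shared pattern in these genes. In 35 of the 60 combinations of a gene and a group, both replicates 2 and 3 were above both replicates 1 and 4, and the mean difference between these pairs was positive for 10 of 10 genes, with a median of 0.063 on the log2 scale. It was widest for nol-6 at 0.17 and pro-3 at 0.14, and close to 0 for nol-10 at 0.015 and fib-1 at 0.016. nol-1 was lowest in replicate 1 in 6 of 6 groups. The split between replicates was known from earlier results of these data, and whether it follows the pairs extracted together was not tested.

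**Figure D4:**
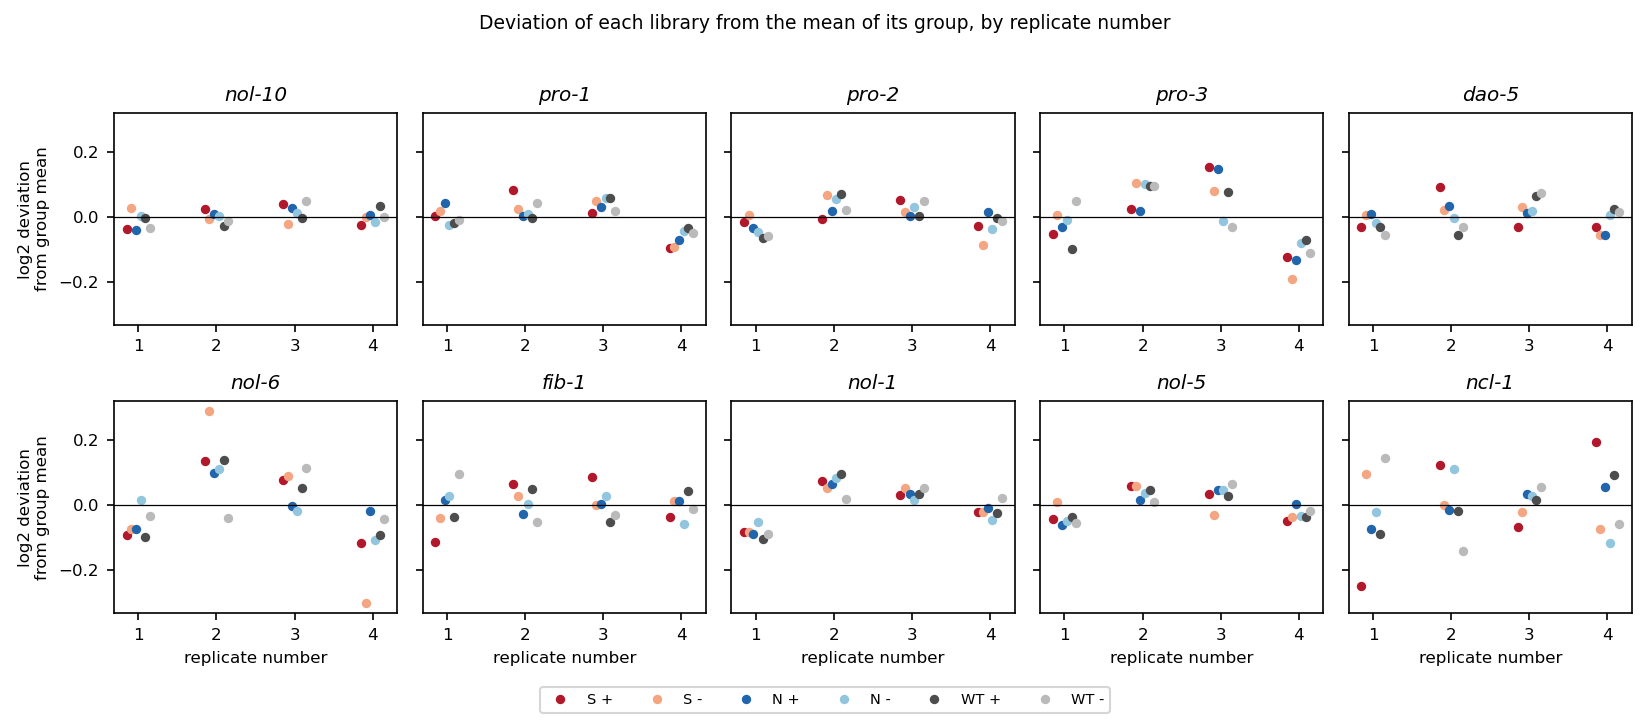
Deviation of each library from the mean of its group (vertical axis, log2) by replicate number (horizontal axis) for the 10 genes; colours mark the 6 groups, where S is the somatic degradation strain, N the neuronal one, WT is wild type, + is auxin and - is no auxin. Replicates 2 and 3 tend to lie above 0 for nol-1, nol-5, nol-6 and pro-3, and replicate 1 of nol-1 is below 0 in all 6 groups.

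Each subset of the replicates was therefore fitted alone for the somatic comparison. With replicates 1 and 4 the log2 fold changes were -0.32 for nol-10, -0.32 for pro-1, -0.21 for pro-2 and -0.33 for pro-3, and with replicates 2 and 3 they were -0.23 for nol-10, -0.30 for pro-1, -0.25 for pro-2 and -0.33 for pro-3. These 4 were called in both subsets. dao-5 was called in neither, at -0.12 in replicates 1 and 4 (adjusted p = 0.023) and -0.11 in replicates 2 and 3 (adjusted p = 0.15). fib-1 was at -0.11 in replicates 1 and 4 (adjusted p = 0.075) and 0.013 in replicates 2 and 3 (adjusted p = 0.83).

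Fewer interactions were called within subsets. nol-10 was called in replicates 1 and 4, with a somatic minus neuronal difference of -0.27 (adjusted p = 0.0055) and a somatic minus wild type difference of -0.31 (adjusted p = 0.0017), but not in replicates 2 and 3, where the differences were -0.20 (adjusted p = 0.039) and -0.15 (adjusted p = 0.068). pro-1 and pro-2 had negative differences in both subsets, from -0.34 to -0.28 for pro-1 and from -0.28 to -0.17 for pro-2, and were called in neither.

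Over the 24 libraries the 5 genes that fell had a median Pearson r of 0.744 over their 10 pairs, beside 0.459 over all 45 pairs. This is a description of libraries that share groups and replicate numbers. The 5 genes were picked by their fall in the somatic auxin libraries, and that shared fall enters the 0.744. Within groups, after group means were removed, the median was 0.376 over the same 10 pairs and 0.317 over all 45 pairs. The median over the 9 pairs of ncl-1 was 0.123 (0.219 within groups), and over the 9 pairs of fib-1 0.18 (0.193 within groups). fib-1 reached r = 0.526 with nol-10 and 0.506 with pro-2, and within groups its highest value was 0.45, with ncl-1. The genes most like fib-1 over the 24 libraries were Y65A5A.2 (r = 0.791), pabp-2 (r = 0.77), B0280.9 (r = 0.748), Y66D12A.8 (r = 0.747) and ldh-1 (r = 0.743). Those most like ncl-1 were set-16 (r = 0.822), Y53F4B.21 (r = 0.811), his-47 (r = 0.754), cdh-4 (r = 0.744) and trr-1 (r = 0.74). In the somatic comparison pabp-2, B0280.9 and Y66D12A.8 fell, and 0 of the 5 genes most like ncl-1 were called.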

How the data were processed

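Each deposited value is a normalized count, a signal that the authors made by dividing the gene's count by a size factor of its library with DESeq2 1.34.0 (R 4.1.2), after Salmon 1.4.0 had assigned the paired-end, strand-specific reads to WBcel235 transcripts. Quality control by the authors used FastQC 0.11.5, STAR 2.7.0 and MultiQC. No source used here gives Salmon's strand options. Positions and exon lengths come from Ensembl release 115 of WBcel235, a later release than the one the authors name.

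A gene entered the tests if 4 or more libraries reached 10 normalized counts. After 1 was added, log2 values of all 24 libraries were fitted as 6 group means by limma 3.58.1 (R 4.3.3) with an intensity trend. Benjamini-Hochberg adjustment ran over 13150 genes, and a gene was called at 0.01 or less. Fold changes are on the log2(normalized count + 1) scale. Divided by the smallest value above 0 in its library, 100% of values came out whole within 0.01, and the reads recovered by division were tested with edgeR 4.0.16 and DESeq2 1.42.0 as alternatives. The scripts were tested on simulated data.

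Alternatives covered the pseudocount, the filter, TMM and quantile scaling, the libraries fitted, a replicate block, the threshold, leaving out each library, and replicates 1 and 4 or 2 and 3 alone or as a term. Replicate numbers were taken to pair 2 groups where every same-numbered pair had r over 0.1, a limit set by choice. This was met in wild type (r = 0.103 to 0.231) and between neuronal and wild type off auxin (r = 0.102 to 0.234). In the latter, neuronal replicate 4 correlated best with wild type replicate 1. Blocking changed no call of the 10 genes in these comparisons.

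Members and lists were chosen with earlier results of these data known. Named were every member, raga-1, the regulators and TRIM-NHL genes, the 3 genes of each pathway list with the smallest somatic adjusted p, and the 5 genes most correlated with fib-1 and with ncl-1. ruvb-2, nol-56, zhp-4, W07E6.5 and the oocyte markers were named after their values were seen.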

Additional observations from a re-analysis of the deposited data

Results flagged for a closer look

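In 60 groups of 4 libraries, 2 held a library far from its 3 partners; chance gives about 1 in 20 groups. dao-5 had 11928 normalized counts in RAGA-1::AID Somatic auxin replicate 2, while its partners lay between 10968 and 10975. nol-6 had 1266 normalized counts in wild type no auxin replicate 3, while its partners lay between 1135 and 1142.

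The response to auxin was called different between strains for 3 genes in each of 2 tests, which share the somatic libraries. Of all genes tested, 6.02% were called lower for somatic minus neuronal and 9.67% for somatic minus wild type. For somatic minus neuronal, pro-2 was not called in 13 of the 16 fits that left out 1 library. In replicates 2 and 3 alone, 0 of these genes were called in either test. The somatic minus neuronal difference in log2 fold change was -0.231 for nol-10, -0.309 for pro-1 and -0.183 for pro-2. The somatic minus wild type difference was -0.231 for nol-10, -0.323 for pro-1 and -0.264 for pro-2.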

How the results depend on the processing

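In the somatic comparison 4 to 6 of the 10 genes were called over 23 alternatives, and nol-10, pro-1, pro-2 and pro-3 were called under each of them. dao-5 was lost under 12 of the 23, among them TMM rescaling, quantile normalization, edgeR and the fit of only the libraries compared, and nol-6 was gained under 5. In the neuronal, wild type and both baseline comparisons, and for neuronal minus wild type, 0 were called under every alternative.

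The limit of r over 0.1 for every same-numbered pair was not met in the somatic or neuronal strain (r = 0.0786 to 0.238 and 0.0925 to 0.339). Each auxin library there still correlated best with the library of its own number. Whether the numbers pair these libraries was therefore not settled, and the main fit has no block. With the replicate block in limma or in edgeR, 6 genes were called in the somatic comparison (nol-6 added) and 5 in somatic minus neuronal in place of 3 (nol-6 and pro-3 added, with adjusted p of 0.002 and 0.001 in limma). Over all genes the block in limma gave 231 neuronal calls in place of 58, edgeR gave 77, edgeR with the block 275, DESeq2 221 and the term for replicates 1 and 4 against 2 and 3 gave 150. The 4680 somatic calls over all genes became 2816 with only the libraries compared and 1607 in replicates 2 and 3 alone; the 1477 somatic minus neuronal calls became 2251 with the block in limma, 434 in replicates 1 and 4 alone and 128 in replicates 2 and 3 alone; and the 2206 somatic minus wild type calls became 1034 and 241 in those subsets.

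The somatic minus neuronal count was also 5 at an adjusted p of 0.05 and with the term for replicates 1 and 4, 1 in replicates 1 and 4 alone, 0 in replicates 2 and 3 alone, and 2 to 5 over 16 fits that left out 1 library. The somatic minus wild type count of 3 was 1 in replicates 1 and 4 alone, 0 in replicates 2 and 3 alone, and 3 to 4 with 1 library left out. The cause was not tested, though each subset holds fewer samples. Polyadenylated RNA does not measure ribosomal RNA or nucleolus size. The 95% interval of the somatic log2 fold change was narrowest for nol-10 (-0.32 to -0.22) and widest for nol-6 (-0.44 to -0.064).

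The somatic counts of the wider lists moved more. Over the 23 alternatives 3 to 5 of the RNA polymerase I list were called, 1 to 5 of the snoRNP list, 2 to 11 of the small subunit list, 1 to 6 of the large subunit list and 0 to 7 of the exosome list, where the lowest counts of the last 4 included replicates 2 and 3 alone. With 1 library left out the ranges were 4 to 5, 3 to 5, 6 to 9, 2 to 5 and 3 to 6, in the same order. In the neuronal strain 1 of the snoRNP list was called with the replicate block in limma and in edgeR.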

Other observations

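Markers of several other tissues were mostly higher on auxin in RAGA-1::AID Somatic, where 16% of all genes tested were called higher and 19.6% lower. 5 of 6 body wall muscle markers rose and 1 fell, with a summed level of 38776 to 41769 normalized counts with auxin and 30595 to 33694 without. 3 of 6 intestine markers rose, with a summed level of 27283 to 40851 with auxin and 16750 to 19456 without. 4 of 8 neuron markers rose and 1 fell, with a summed level of 6233 to 6525 with auxin and 5525 to 5699 without. 3 of 5 tested early zygotic genes, which mark embryos, rose, with a summed level of 244 to 330 with auxin and 160 to 199 without, and 2 of the 8 listed were at 0 in all 4 libraries without auxin. In RAGA-1::AID Neuronal 1 of 6 intestine markers rose, beside 0.35% of all genes tested, and 0 muscle, neuron or early zygotic markers were called. Of the remaining lists in the somatic strain, 1 of 6 tested epidermis markers and 1 of 2 tested sperm markers fell.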
